A study of Drosophila melanogaster with 4 samples.

Results

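Cells of whole Drosophila embryos were divided by the RNA of lncRNA:roX1 and lncRNA:roX2, the noncoding RNAs of the X chromosome that are abundant in males. Of the 109582 cell barcodes in the 4 libraries, those with at least 8000 unique molecular identifiers (UMIs) and at most 25% of UMIs from mitochondrial genes were kept. A barcode was taken as male where both roX RNAs together made up at least 0.1% of its UMIs and as female where they made up at most 0.03%. This gave 20697 barcodes, 16472 on the roX-high (male) and 4225 on the roX-low (female) side. The embryos were Oregon R wild type, with no transgene or treatment, collected at stages 10-12 or stages 13-16, with 2 biological replicates per stage window. Each library came from dissociated embryos run on the 10x 3' platform, and the labels give no sex, so a library is taken here to hold cells of both sexes from the same collection. The stage 10-12 embryos were aged at a lower temperature than they were collected at, and the stage 13-16 embryos were kept at room temperature, so stage and collection conditions cannot be told apart. In the paper's pseudotime analysis of salivary gland cells, stage 13-16 replicate 1 was enriched for later and replicate 2 for earlier embryos of that window.

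Drosophila males have a single X chromosome and females a pair. In males the MSL complex, made of the proteins MSL1, MSL2, MSL3, MLE and MOF with a roX RNA, binds along the X and acetylates histone H4, and transcription of X genes rises to balance that of the autosomes. In females the RNA-binding protein Sex-lethal (Sxl) blocks the translation of msl-2 mRNA and retains an intron in it, so that the complex does not form and the roX RNAs are unstable. roX1 lies on X at 3857230 to 3862697 and roX2 at 11579065 to 11580432 (BDGP6.54).

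The 4 libraries held 20529 and 13758 barcodes at stage 10-12 and 39078 and 36217 at stage 13-16, with 71622535 to 394684653 UMIs in all. After the filters 6138, 1530, 5061 and 14392 barcodes remained in stage 10-12 replicates 1 and 2 and stage 13-16 replicates 1 and 2, the order used for all sets of 4 values below. Any pair of libraries shared 94 to 389 barcode sequences. Doublets were not removed, and a droplet holding a male and a female cell would carry roX RNA from the male cell.

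The roX-high side held 3734, 925, 2856 and 8957 barcodes and the roX-low side 977, 322, 1219 and 1707. Of the barcodes on either side, the roX-high share was 79.3% (exact 95% interval 78.1 to 80.4), 74.2% (71.7 to 76.6), 70.1% (68.7 to 71.5) and 84.0% (83.3 to 84.7), so the roX-high side was the larger in every library. Between the limits lay 1427, 283, 986 and 3728 barcodes, 18.5% to 25.9% of a library, and these entered neither side. Summed by side, the libraries gave 27845302 to 197053525 UMIs for the roX-high and 8080376 to 47631657 for the roX-low barcodes. The sides were of similar depth, with a median of 17625, 23463, 16966 and 14970 UMIs in roX-high barcodes against 16403, 21258, 18414 and 17266 in roX-low barcodes.

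The roX levels chose the sides and are given as a description with no test. roX1 stood at 2647, 2675, 2536 and 2353 CPM (UMIs of a gene for every 1000000 UMIs of a side) on the roX-high and at 157, 132, 106 and 161 CPM on the roX-low side. roX2 was much scarcer, at 69.3, 137, 508 and 156 CPM against 8.87, 16.7, 37.2 and 14.1 CPM. roX1 therefore supplied most of the signal on which the sides rest, and roX2 was highest in stage 13-16 replicate 1. The median barcode had 41, 58, 43 and 36 roX UMIs on the roX-high side and 2 or 3 on the roX-low side, where 3.51% to 11.2% of barcodes had none. Barcodes under 2000 UMIs, a mixture of shallow cells and droplets with free RNA, had a summed roX share of 0.235%, 0.0994%, 0.132% and 0.266%, so free RNA that resembles them would add roX UMIs to barcodes of either sex.

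**Figure D1:**
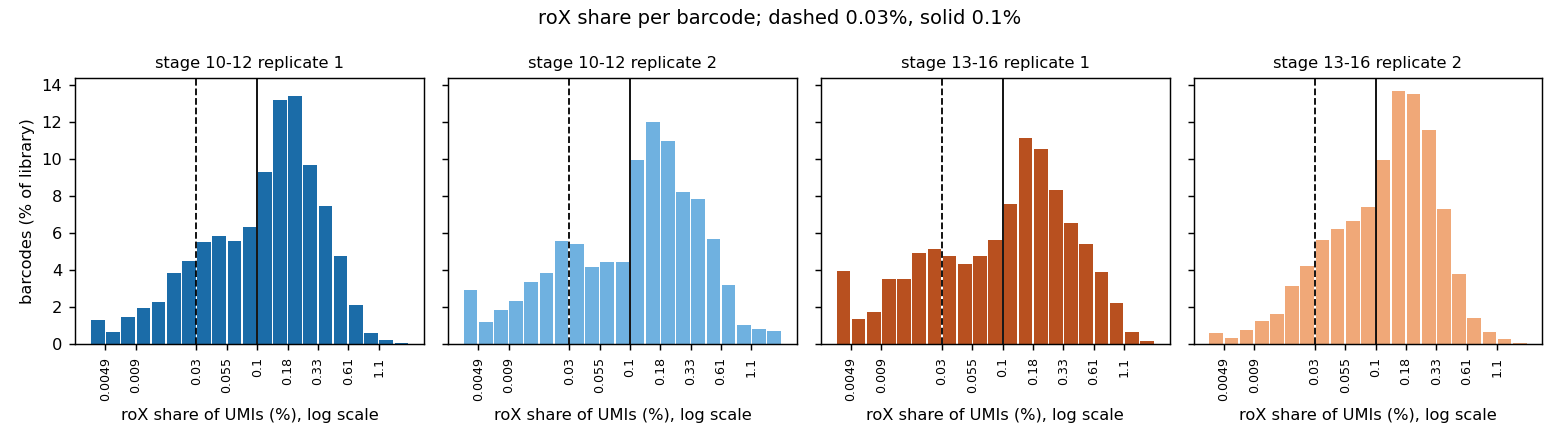
Histogram of the roX share of UMIs per barcode (log axis, %) as a percent of the barcodes of each library, with the limits of 0.03% (dashed) and 0.1% (solid). In each of the 4 libraries most barcodes lie above 0.1%, a lower shoulder extends below 0.03%, and no empty stretch separates them.

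The limits fell within a continuous range. In stage 10-12 replicate 1 the highest roX-low share was 0.029992% and the next barcode outside had 0.030057%. At the upper limit of that library the neighbours were 0.099955% and 0.100069%. In the 4 libraries 581, 153, 466 and 1626 barcodes lay between 0.08% and 0.12%, and 685, 190, 609 and 1565 between 0.02% and 0.04%.

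The labels were checked against cell type, and the split by roX share was not alike across the classes of a library. Barcodes were clustered in each library on autosomal and fourth-chromosome genes, and clusters were called X-like from marker genes. In neural progenitor-like clusters, named from a list that includes the neuroblast genes ase, wor, dpn and mira, 86.5% to 96.4% of barcodes were roX-high and 0 to 1.28% roX-low (1935 barcodes over 4 libraries). Sensory organ-like clusters had 72.2% to 80.5% roX-high and 3.14% to 5.22% roX-low barcodes in the 2 libraries where they held at least 30 barcodes. Epidermis-like clusters had 66.4% to 82.4% roX-high and 5.15% to 9.15% roX-low barcodes (4018 barcodes). Midgut-like clusters were nearer to balance, with 39.9% to 51.8% roX-high and 22.1% to 45.5% roX-low barcodes (2442). Muscle precursor-like clusters had 46.1% to 58.3% and 9.76% to 30.8% (4911), and somatic muscle-like clusters 46.9% to 55.2% and 22.4% to 32.2% (2083). The roX-low share of the neural progenitor-like class did not overlap with that of the midgut-, muscle precursor- or somatic muscle-like class in any library. Clusters were named within each library, so a class need not hold the same cells in all libraries. In stage 13-16 replicate 1, 164 muscle precursor-like barcodes were led by Miox, bgm and CG16758. Clusters with these leading genes were fat body-like in replicate 2 and unnamed at stage 10-12. Another 271 barcodes of replicate 1, with Hand, org-1 and side-IV, were somatic muscle-like, and their counterpart in replicate 2 was unnamed. Of the neural progenitor-like barcodes of stage 10-12 replicate 1, 396 were led by tap, nerfin-1 and insb, with the neuron marker elav also among the leading genes. A cluster of 139 barcodes with these genes in stage 10-12 replicate 2 was unnamed. In stage 10-12 replicate 2, 107 epidermis-like barcodes had CG13465, CG10035, SoxN, D and sca among their leading genes. A cluster of 473 barcodes in stage 10-12 replicate 1 that also had CG13465, CG10035 and sca was unnamed. Class values above and below share this limit.

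**Figure D2:**
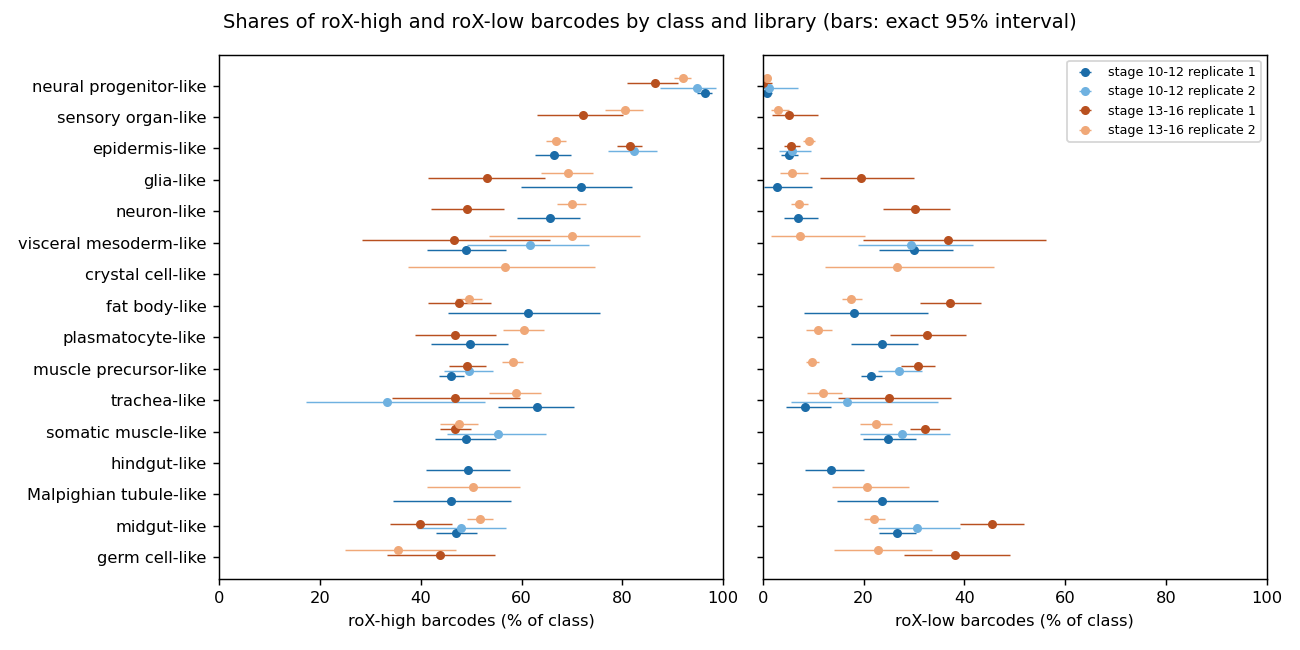
Percent of the barcodes of each class that were roX-high (left) and roX-low (right), 1 point per library with at least 30 barcodes of the class, bars showing the exact 95% binomial interval. Neural progenitor-like barcodes lie at 86.5% to 96.4% roX-high and at most 1.28% roX-low, while midgut-like barcodes lie at 39.9% to 51.8% and 22.1% to 45.5%.

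The sides therefore differed in cell type as well as in roX. The summed CPM of 8 neural progenitor markers was 3.07 to 6.25 times as high on the roX-high as on the roX-low side, and that of 10 neuron markers 1.37 to 3.24 times. The 9 somatic muscle markers stood at 0.439 to 0.802 and the 7 midgut markers at 0.615 to 0.934 of the roX-low level. For this reason each comparison was also made on equal numbers of roX-high and roX-low barcodes from every cluster (914, 287, 1113 and 1707 barcodes per side) and within classes. Equal numbers brought the neural progenitor ratio to 1.28 to 1.91, still above 1 in all 4 libraries, the neuron ratio to 0.852 to 1.16, the somatic muscle ratio to 0.851 to 0.988 and the midgut ratio to 1.00 to 1.22. The epidermis (1.06 to 1.43), salivary gland (1.21 to 1.54) and amnioserosa (1.05 to 1.69) markers were also above 1 in 4 of 4 libraries, so equal numbers brought the sides closer in cell type without making them alike.

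The balance between the 2 roX RNAs also varied by class. In roX-high barcodes, roX2 made up 1.05%, 1.01%, 7.37% and 2.75% of roX UMIs in neural progenitor-like clusters, the lowest of the 12, 6, 12 and 12 classes compared in the 4 libraries. In somatic muscle-like clusters roX2 made up 6.69%, 15.2%, 28.2% and 11.4%, and in muscle precursor-like clusters 5.83%, 9.60%, 22.5% and 7.95%. Visceral mesoderm-like clusters had the highest part in both stage 10-12 libraries, 9.99% and 16.3%. This class was not ranked at stage 13-16, where 14 and 28 of its barcodes were roX-high, under the minimum of 30. Somatic muscle-like clusters had the highest part of the classes ranked there. Counted over every barcode of a class at stage 13-16, roX2 made up 32.6% and 9.94% in visceral mesoderm-like clusters. The somatic muscle-like values were 29.8% and 12.1%, so the order of these classes differed between the replicates. All other classes compared, mesodermal or not, thus stood above the neural progenitor-like class within every library. Stage 13-16 replicate 1, the later of the 2 stage 13-16 collections in the paper's pseudotime analysis, was high in all classes. roX1 ran the other way, with 2764 to 4402 CPM in roX-high neural progenitor-like and 1345 to 1666 CPM in roX-high somatic muscle-like barcodes.

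The labels were then set against genes that the rule did not use. With the barcodes of the 4 libraries divided by roX share, msl-2 stood at 7.14 CPM (exact 95% Poisson interval 6.62 to 7.69) at or below 0.03%. It stood at 10.9 CPM (10.37 to 11.54) between the limits, at 20.8 CPM (20.2 to 21.6) from 0.1% to 0.2%, and at 28.4 and 32.6 CPM from 0.2% to 0.4% and above 0.4%. msl-2 RNA thus rose with roX, and the barcodes between the limits were nearer to the roX-low side. These values weight the libraries by their UMIs, and msl-2 was lower in both stage 13-16 libraries. In midgut-like clusters msl-2 went from 10.5 CPM (8.96 to 12.3) between the limits to 24.2 CPM (22.2 to 26.3) at 0.1% to 0.2%. In muscle precursor-like clusters it went from 12.2 CPM (10.8 to 13.7) to 29.0 CPM (27.0 to 31.2). In neural progenitor-like clusters the same step was from 13.7 CPM (8.51 to 21.0) to 19.3 CPM (15.9 to 23.2), whose intervals overlap, and the level reached 34.4 CPM (31.6 to 37.4) at 0.2% to 0.4% and 43.4 CPM (40.2 to 46.9) above 0.4%. In epidermis-like clusters it was 9.004, 14.1, 23.2 and 24.7 CPM over the same 4 ranges. Within libraries, msl-2 at 0.1% to 0.2% roX was 17.7, 23.9, 14.03 and 12.5 CPM in epidermis-like against 29.1, 26.9, 22.0 and 22.0 CPM in midgut-like clusters, lower in 4 of 4 libraries. The ranges of the classes over libraries overlapped, and how many female cells this roX range holds in each class was not tested. These intervals cover counting error only.

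**Figure D3:**
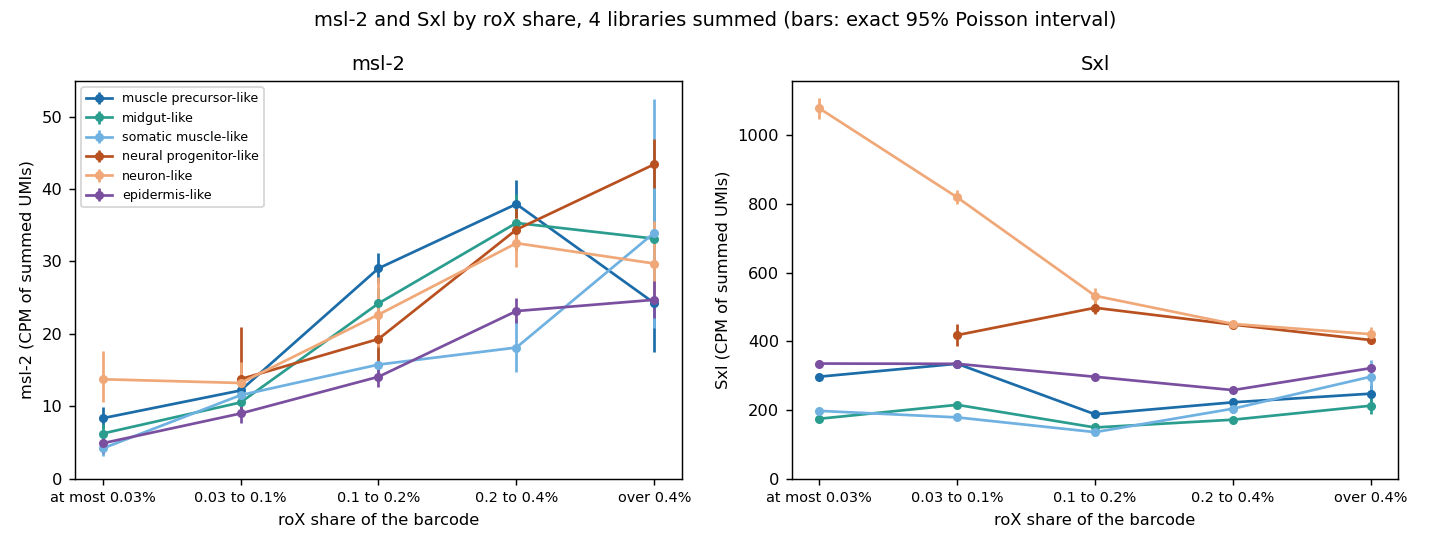
msl-2 (left) and Sxl (right) in CPM of the summed UMIs of 4 libraries against the roX share of the barcode, 1 line per class, bars showing the exact 95% Poisson interval and the lowest range of the neural progenitor-like class (14 barcodes) not drawn. msl-2 rises with roX in each class between 0.03% and 0.4%, and Sxl falls with roX in neuron-like clusters, from 1079 to 421 CPM.

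Sxl RNA went the other way in neuron-like clusters, from 1079 CPM at or below 0.03% to 820, 533, 451 and 421 CPM in the higher ranges. In neural progenitor-like clusters Sxl was 418 CPM between the limits and 498, 449 and 404 CPM above 0.1%. Over all barcodes Sxl showed no steady direction, at 280, 318, 227, 284 and 358 CPM.

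The Y chromosome, carried by males alone, gave a second readout that the rule did not use. Of 113 annotated Y genes, 27 had at least 1 UMI on either side and 5 at least 10, and none passed the filter on low counts for the test across genes. All Y genes together had 66 UMIs on the roX-high and 8 on the roX-low side in stage 10-12 replicate 1, 36 and 7 in replicate 2, and 25 and 3, then 64 and 6, in the stage 13-16 libraries. In CPM this was 0.833 against 0.438, 1.29 against 0.866, 0.443 against 0.1245 and 0.325 against 0.126, higher on the roX-high side in 4 of 4 libraries. Summed over libraries the level was 0.530 CPM (0.457 to 0.610) against 0.245 CPM (0.157 to 0.364). Of the 24 roX-low Y UMIs, 7 lay in the 72 roX-low germ cell-like barcodes, at 2.73 CPM. The protein-coding Y gene FDY (Y, 3022289 to 3024024) had 40, 6, 13 and 30 roX-high and 2, 0, 2 and 2 roX-low UMIs. Its summed level was 0.247 CPM (0.198 to 0.304) against 0.0612 CPM (0.0225 to 0.133). These counts are too low to sex a single barcode. Su(Ste):CR42418, a repeat family member whose reads cannot be told from near-identical copies, lies on a sequence that the annotation does not place on Y. It had 24, 33, 35 and 127 roX-high against 8, 11, 1 and 9 roX-low UMIs. In CPM this was 0.303, 1.19, 0.620 and 0.644 against 0.438, 1.36, 0.0415 and 0.189. The roX-high side was thus lower in both stage 10-12 libraries and higher in both stage 13-16 libraries.

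Single genes were tested on the 8 summed sides with the library as a block and without the roX genes (edgeR quasi-likelihood test, Benjamini-Hochberg adjustment, call at an adjusted p of 0.05). Of 10222 genes tested, 1745 (17.1%) were higher and 1689 (16.5%) lower on the roX-high side, 33.6% in all. With equal numbers per cluster, 176 of 9401 (1.87%) were higher and 100 (1.06%) lower, 2.94% in all. Of these 276 calls, 251 (90.9%) were also called with all barcodes, each in the same direction, and they made up 7.31% of the calls with all barcodes. Most calls with all barcodes were thus not made with equal numbers, although the equal-number sums also hold fewer barcodes. Without stage 10-12 replicate 1 or replicate 2, 1459 or 1731 genes were called with all barcodes, and without the library block 55. In the equal-number comparison leaving out any library left 0 or 1 call, so its calls rest on all 4 libraries.

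msl-2, the subunit that is made only in males and assembles the complex, was higher on the roX-high side in each library. It was at 36.1, 38.3, 17.6 and 21.9 CPM on the roX-high and at 10.6, 9.53, 5.98 and 5.98 CPM on the roX-low side. The lowest roX-high library lay above the highest roX-low library, which held for 6.65% of all genes tested, and both stage 10-12 libraries were above both stage 13-16 libraries on either side. The log2 difference was 1.76 ± 0.13 (SE), with an edgeR adjusted p of 0.0022, and msl-2 ranked 34 of the 10222 genes by p. With equal numbers per cluster the levels were 35.8, 35.4, 16.3 and 20.5 CPM against 10.6, 9.15, 5.80 and 5.98 CPM, again without overlap, which held in that direction for 1.08% of genes. There the log2 difference was 1.73 ± 0.10 (edgeR adjusted p = 0.024), and msl-2 ranked first of the 9401 genes by p. Leaving out each library in turn kept the equal-number difference at 1.67 to 1.82, with edgeR adjusted p values of 0.074 to 0.13. Without the library block it was 1.83 with all barcodes (edgeR adjusted p = 0.074) and 1.78 with equal numbers (adjusted p = 0.99992). msl-2 lies on 2L (3462218 to 3466112), an autosome.

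The other subunits were higher on the roX-high side by less. All 5 of 5 MSL subunit genes were called with all barcodes, where 17.1% of all genes were called higher. Their median log2 difference was 0.70 against -0.00 over all genes tested. With equal numbers 2 of 5, msl-2 and mle, were called, where 1.87% of genes were called higher (median 0.39 against -0.01). msl-1, the scaffold, was at 50.8, 54.3, 52.6 and 35.4 CPM against 30.01, 34.0, 29.4 and 22.3 CPM. Every roX-high library thus lay above every roX-low library, which held for 6.65% of all genes tested. Its log2 difference of 0.70 ± 0.08 (edgeR adjusted p = 0.0034) was 0.37 with equal numbers (adjusted p = 0.059). mle, the RNA helicase that remodels roX RNA, was at 49.0, 46.8, 49.7 and 42.2 CPM against 35.6, 39.2, 32.9 and 31.3 CPM, again without overlap. It differed by 0.40 (edgeR adjusted p = 0.011) with all barcodes and by 0.34 ± 0.04 (adjusted p = 0.033) with equal numbers. mof, the histone acetyltransferase, is itself on X (5873840 to 5876853). It was at 16.7, 15.1, 9.45 and 10.8 CPM against 10.7, 6.56, 6.18 and 6.30 CPM, higher on the roX-high side in each library, with both sides overlapping across libraries. Its difference was 0.76 (edgeR adjusted p = 0.014), and 0.63 with equal numbers (adjusted p = 0.063). msl-3, the chromodomain subunit, differed by 0.54 (edgeR adjusted p = 0.016), and by 0.39 with equal numbers (adjusted p = 0.095). With all barcodes, mle (0.36) and mof (0.78) lost their call without stage 10-12 replicate 1, and msl-3 without either stage 10-12 replicate (0.53 and 0.46).

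Genes of partners of the complex were higher on the roX-high side with all barcodes. All 5 of 5 were called, where 17.1% of all genes were called higher, with a median of 0.39. Clamp, the zinc finger protein that binds the GA-rich sites of the X, was higher by 0.37 log2 units, the histone H3 kinase gene JIL-1 by 0.39, Top2 (topoisomerase 2) by 1.13, Unr, an RNA-binding protein of the sex-specific translational control, by 0.33 and the heterochromatin protein gene Su(var)3-7 by 0.63. Clamp, JIL-1 and Unr lost their call without either stage 10-12 replicate (0.33 and 0.34, 0.36 and 0.40, and 0.33 and 0.36). With equal numbers 0 of 5 were called (edgeR) and all 5 differences were above 0, from 0.09 to 0.28, with a median of 0.14 against -0.01 over all genes. JIL-1, for example, was at 270, 271, 291 and 225 CPM against 201, 215, 191 and 178 CPM with all barcodes, and its difference with equal numbers was 0.16 (adjusted p = 0.087).

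**Figure D4:**
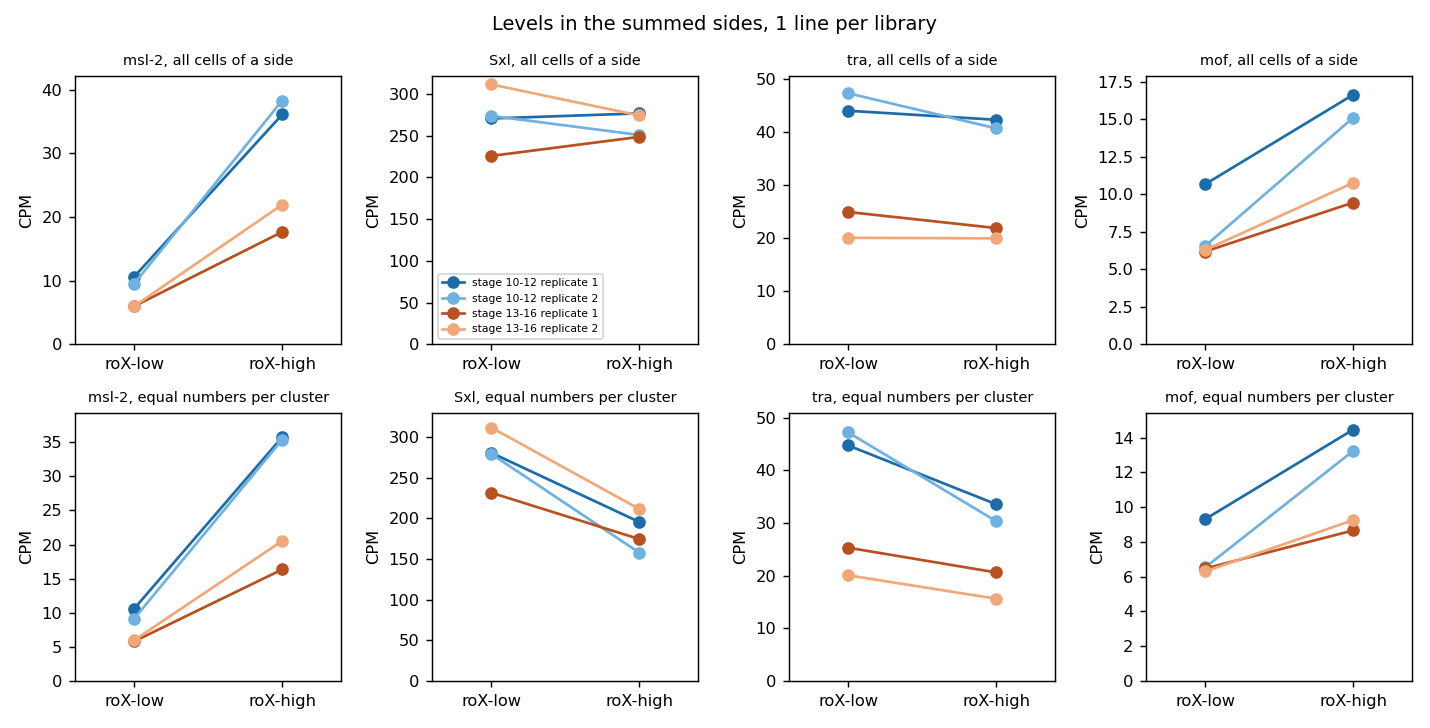
CPM of msl-2, Sxl, tra and mof on the roX-low and the roX-high side, 1 line per library, with all barcodes of a side (top) and with equal numbers per cluster (bottom). msl-2 is higher on the roX-high side in every library in both rows, and Sxl is lower on it in 4 of 4 libraries with equal numbers and in 2 of 4 with all barcodes.

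Among 12 genes of the sex determination switch and its splicing, 3 were called higher and 1 lower on the roX-high side with all barcodes, 4 of 12 where 33.6% of all genes were called, so the list was near the background. The 3 were fl(2)d (0.44), vir (0.37) and Ythdc1 (0.53), which belong to the RNA methylation machinery used in Sxl splicing, and vir lost its call without stage 10-12 replicate 1 (0.38), stage 10-12 replicate 2 (0.30) or stage 13-16 replicate 2 (0.37). The gene dsx, the last switch of the pathway, was lower, at 0.732, 1.62, 5.08 and 2.54 CPM against 1.15, 2.85, 7.06 and 3.78 CPM (log2 difference -0.66 ± 0.18, edgeR adjusted p = 0.034). dsx was lower in each library, but its levels followed the library more than the side, and with equal numbers the difference was -0.49 (adjusted p = 0.27). Its call was lost when any library was left out (-0.63 to -0.68).

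Sxl itself, on X at 7074550 to 7098053, did not differ with all barcodes. It was at 277, 251, 249 and 274 CPM against 271, 274, 226 and 312 CPM, with the sides overlapping (-0.07 ± 0.08, edgeR adjusted p = 0.54). With equal numbers it was at 196, 158, 174 and 211 CPM against 281, 279, 231 and 312 CPM, and every roX-high library lay below every roX-low library, which held for 0.723% of genes. The log2 difference there was -0.58 ± 0.06 (edgeR adjusted p = 0.032). The direction of Sxl depended on the choice of barcodes: under the stricter roX limits, 0.2% and 0.01%, the difference was 0.40. Neuron-like clusters had the highest Sxl level of the 6 classes drawn. tra, the splicing factor gene that functions downstream of Sxl, followed the same course. With all barcodes it was at 42.3, 40.7, 21.9 and 19.9 CPM against 44.0, 47.3, 24.9 and 20.1 CPM (-0.15, edgeR adjusted p = 0.23). With equal numbers it was at 33.5, 30.3, 20.6 and 15.6 CPM against 44.7, 47.2, 25.3 and 20.1 CPM, lower in each library (-0.43 ± 0.06, adjusted p = 0.039). Both genes are controlled by splicing, which counts at the 3' end do not resolve, and these are levels of all their RNA forms. With equal numbers 0 of the 12 genes were higher and 2, Sxl and tra, lower, with a list median of 0.02.

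The list of X counting holds signals and other regulators that act on Sxl in the early embryo. It includes sc, run and dpn, which also act in later neural development. Of 9 genes tested, 6 were higher on the roX-high side with all barcodes (median 0.67) and 0 lower, where 17.1% of all genes were higher. sc, a proneural gene on X, was at 17.5, 12.1, 4.41 and 8.65 CPM against 5.04, 3.96, 1.37 and 1.89 CPM (1.80 ± 0.16, edgeR adjusted p = 0.0030). run, a Runt-domain factor gene on X, was at 45.5, 40.5, 22.9 and 29.3 CPM against 21.6, 15.5, 10.0 and 13.9 CPM (1.14 ± 0.10, adjusted p = 0.0029). Both were higher in each library, and run did not overlap between the sides. The others were upd2 (0.96), da (0.43), gro (0.67) and the neuroblast gene dpn (2.54). upd2 lost its call without stage 10-12 replicate 1 (0.77), stage 13-16 replicate 1 (0.91) or stage 13-16 replicate 2 (0.96). With equal numbers 0 of 9 were called (edgeR, median 0.18), and the difference of run was 0.25 ± 0.13 (adjusted p = 0.30). The neural progenitor markers moved with this list, and their part in it was not tested.

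The question of dosage is whether genes of the X were lower on the roX-high side. They were nearly level. The median log2 ratio of X genes minus that of genes on the major autosome arms was -0.02, -0.04, -0.00 and -0.04, over 1081 to 1551 X genes and 5121 to 7629 autosomal genes per library with at least 200 UMIs. The mean of -0.02 ± 0.02 (SD, n = 4) is a ratio of 0.983, below 0 in 4 of 4 libraries, with an exact two-sided sign-flip p of 1/8, the smallest that 4 pairs allow. With equal numbers the values were -0.06, -0.08, -0.04 and -0.03, a mean of -0.05 ± 0.02 or a ratio of 0.966, again below 0 in 4 of 4 (exact p = 1/8). A male level in proportion to copy number, 1 copy against 2, would give a value of -1 between pure sexes. X RNA per autosomal RNA on the roX-high side was within 0.08 log2 units of that on the roX-low side in all 4 libraries. The sides may not be pure sexes: the roX-low side carried Y RNA at 0.245 CPM against 0.530 CPM, and mixing of the sexes, which would bring the value toward 0, was not tested. Under the stricter roX limits the mean was -0.01 with 2 of 4 libraries below 0, and with at most 30000 UMIs per barcode it was -0.00.

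Summed UMIs, which a few abundant genes dominate, gave the same small difference. X genes took 14.99%, 15.4%, 15.5% and 16.3% of the UMIs of the X and the major autosome arms on the roX-high side and 15.2%, 15.9%, 15.7% and 16.4% on the roX-low side. The difference of -0.262 ± 0.158 percentage points (SD, n = 4) had an exact p of 1/8. With equal numbers it was -0.592 ± 0.183 points. Its sign turned without the 20 X genes and the 20 autosomal genes with most UMIs, to 0.129 ± 0.374 points (range -0.111 to 0.686). Under the stricter roX limits it turned to 0.171 ± 0.349 points. In both settings 2 of 4 libraries were below 0.

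Calls were also counted by chromosome. With equal numbers, 27 of 1587 X genes (1.70%) were higher and 56 (3.53%) lower on the roX-high side, and 39.3% had a difference above 0 (median -0.06). On each of the 4 major autosome arms 1.70% to 2.10% were higher, 0.420% to 0.626% lower and 48.0% to 50.3% above 0. With all barcodes 267 of 1724 X genes (15.5%) were higher and 315 (18.3%) lower, against 16.3% to 17.6% and 15.7% to 17.1% on the autosome arms. A larger share of X genes than of genes of any autosome arm was thus called lower with equal numbers. These shares are a description, and the difference between X and autosomes in these shares was not tested.

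**Figure D5:**
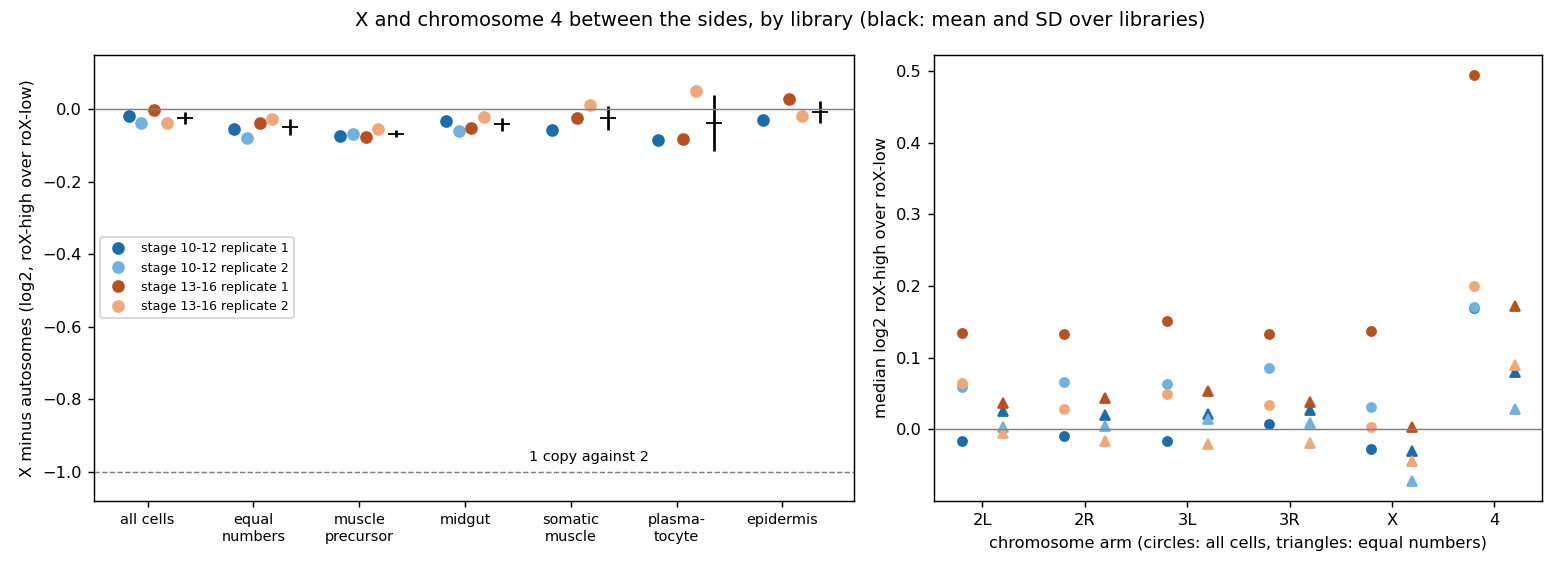
Left, the median log2 ratio of roX-high to roX-low barcodes over X genes minus that over autosomal genes, 1 point per library, with the mean and SD in black and a dashed line at -1 for 1 copy against 2. Right, the median log2 ratio by chromosome arm with all barcodes (circles) and equal numbers (triangles); X lies within 0.08 of the pooled autosomal median in each library, and chromosome 4 lies above it.

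The X values were also taken within classes. Muscle precursor-like clusters gave -0.07, -0.07, -0.08 and -0.06 (mean -0.07 ± 0.01, n = 4, exact p = 1/8), and midgut-like clusters a mean of -0.04 ± 0.02, below 0 in 4 of 4 libraries (exact p = 1/8). Plasmatocyte-, somatic muscle- and epidermis-like clusters had enough barcodes in 3 libraries, and 2 of 3 were below 0 in each. Their means were -0.04 ± 0.08 in plasmatocyte-like, -0.02 ± 0.03 in somatic muscle-like and -0.01 ± 0.03 in epidermis-like clusters, and the plasmatocyte-like libraries ran from -0.09 to 0.05. In classes with at least 30 barcodes per side in fewer libraries, the values were -0.09 and -0.11 in neuron-like and -0.02 and 0.02 in fat body-like clusters of the stage 13-16 libraries. They were -0.07 in visceral mesoderm-like clusters of stage 10-12 replicate 1, 0.00 in germ cell-like clusters of stage 13-16 replicate 1 and 0.00 in trachea-like clusters of stage 13-16 replicate 2. With all barcodes of a class, the neuron-like values were the lowest of these classes, and all lay nearer to 0 than to -1. Equal numbers per cluster gave means of -0.06 in muscle precursor-like, -0.04 in midgut-like and -0.06 ± 0.11 in plasmatocyte-like clusters. The means were then -0.03 in somatic muscle-like and 0.00 in epidermis-like clusters. The plasmatocyte-like libraries then ran from -0.14 to 0.06, and the neuron-like values were -0.05 and -0.09. The X level was also read along the roX share, with no test. From 0.1% to 0.2% roX the X share was 14.9%, 15.2%, 15.1% and 15.9%, the lowest of the 5 ranges in each library, and above 0.4% it was 15.2%, 15.7%, 15.9% and 16.8%. Relative to the roX-low barcodes the gene median was -0.02, -0.05, -0.04 and -0.04 from 0.1% to 0.2%, -0.03, -0.06, -0.03 and -0.04 from 0.2% to 0.4%, and 0.03, 0.01, 0.07 and 0.04 above 0.4%. Below 0.4% it did not rise with roX in 3 of 4 libraries, and above 0.4% it was higher than in both lower ranges in all 4. Cell types differed along this range, as the class shares show.

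Genes of chromosome 4, which has its own chromosome-wide binding protein, were shifted upward on the roX-high side. Its gene median minus that of the autosomes was 0.18, 0.10, 0.36 and 0.16 (mean 0.20 ± 0.11, n = 4, exact p = 1/8), and 0.06, 0.02, 0.13 and 0.11 with equal numbers (mean 0.08 ± 0.05, exact p = 1/8). With all barcodes 32 of 96 genes (33.3%) were called higher and 5 (5.21%) lower, against 17.1% and 16.5% of all genes tested. With equal numbers 4 of 93 (4.30%) were called higher and 0 of 93 lower, against 1.87% and 1.06% of all genes tested. The named genes with the greatest differences were the Pax-family factor genes sv (1.81), ey (1.81) and toy (1.56), which act in neural and sensory tissue. ey was at 10.97, 9.91, 7.24 and 8.93 CPM against 1.59, 2.35, 2.70 and 3.59 CPM (edgeR adjusted p = 0.0089). Its difference with equal numbers was 0.15 ± 0.27 (adjusted p = 0.79), and that of toy was -0.01. The 3 lowest were CG1674, CG11076 and ATPsynbeta, the gene of the beta subunit of mitochondrial ATP synthase. ATPsynbeta was at 651, 551, 596 and 842 CPM against 827, 624, 702 and 1114 CPM (-0.33 ± 0.08, edgeR adjusted p = 0.025), and at -0.16 with equal numbers (adjusted p = 0.054).

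Among X genes called both with all barcodes and with equal numbers, some had lower and some higher levels on the roX-high side. tko, which encodes a protein of the mitochondrial ribosome, was at 74.6, 71.3, 100.2 and 100.0 CPM on the roX-high and at 172, 144, 179 and 186 CPM on the roX-low side. Every roX-high library lay below every roX-low library, which held for 4.21% of all genes. The log2 difference was -1.03 ± 0.07 (edgeR adjusted p = 0.0021), and -0.55 with equal numbers (adjusted p = 0.027). CG4593 was at 36.7, 39.4, 43.5 and 43.8 CPM against 73.2, 79.7, 70.0 and 69.5 CPM (-0.88 ± 0.07, adjusted p = 0.0027), and NdufV3, a subunit gene of respiratory complex I, at 93.9, 92.0, 79.2 and 80.1 CPM against 144, 137, 136 and 127 CPM (-0.70 ± 0.09, adjusted p = 0.0049). Neither overlapped between the sides, and with equal numbers the differences were -0.51 (adjusted p = 0.028) and -0.50 (adjusted p = 0.032). The differences of tko, CG4593 and NdufV3 were thus smaller with equal numbers. In the opposite direction CG15317 was at 15.8, 13.97, 13.7 and 17.8 CPM against 6.79, 5.20, 6.60 and 10.4 CPM, without overlap (1.06 ± 0.16, adjusted p = 0.0062), and its difference was 1.21 ± 0.11 with equal numbers (adjusted p = 0.032). tko, CG4593, NdufV3 and CG15317 were chosen after their values were seen. By the fixed rule, the X genes with the greatest differences were the noncoding RNAs lncRNA:CR32730 (2.99), lncRNA:CR45532 (2.90) and lncRNA:CR46494 (2.80), and CG43088 (-3.79), karr (-3.40) and CG42300 (-2.65).

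Neural genes were among the 10 with the greatest differences toward the roX-high side. cas, a late neuroblast transcription factor gene, was at 65.2, 47.1, 55.8 and 71.7 CPM against 4.22, 5.20, 4.28 and 11.8 CPM (3.29), and nab, a transcriptional cofactor gene, differed by 3.57. lncRNA:CR45388 was at 73.6, 109, 108 and 84.6 CPM against 4.22, 4.33, 9.22 and 8.94 CPM (3.75). Neither cas nor lncRNA:CR45388 overlapped between the sides. The other 7 named by the rule were sisRNA:CR46360 (4.10), lncRNA:CR46003 (4.05), lncRNA:CR45387 (3.78), Pex7 (3.36), lncRNA:cherub (3.28), lncRNA:CR45242 (3.21) and CG45072 (3.05). With equal numbers lncRNA:CR45388 differed by 1.56 (edgeR adjusted p = 0.027), cas by 1.24 (adjusted p = 0.075) and lncRNA:cherub by -0.17 (adjusted p = 0.89). The neuroblast genes wor, at 75.4, 66.4, 30.5 and 38.8 CPM against 10.7, 10.8, 3.53 and 6.45 CPM, and ase and the neural gene pros followed the same course. Their differences of 2.74, 2.35 and 2.58 were 0.90 (adjusted p = 0.032), 0.88 (0.033) and 0.96 (0.032) with equal numbers.

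Germ line genes were among the 10 with the greatest differences in the other direction. zpg, which encodes a gap junction protein of germ cells, was at 0.732, 0.359, 2.25 and 2.00 CPM on the roX-high and at 20.9, 14.98, 11.7 and 9.93 CPM on the roX-low side, without overlap. Its log2 difference of -3.56 (edgeR adjusted p = 0.0070) was -2.40 with equal numbers (adjusted p = 0.057) and -1.13 without germ cell-like barcodes (adjusted p = 0.40). stil, another germ line gene, was at 0.114, 0.251, 0.354 and 0.208 CPM against 5.42, 4.95, 1.95 and 1.34 CPM (-3.68), and ord and cona, genes of meiotic chromosomes, differed by -3.77 and -3.46. The others named by the rule were CG3251 (-4.10), CG15262 (-4.07), CG12477 (-3.92), CG43088 (-3.79), CycJ (-3.61) and CG2839 (-3.51). Without germ cell-like barcodes 9 of these 10 genes had too few UMIs for the test. Of 8 germ line genes of the fixed list that were tested, 4 were lower and 0 higher on the roX-high side (median -1.37), where 16.5% of all genes were lower: zpg, nanos (-3.11), vas (-1.33) and otu (-1.66). nanos, the translational repressor gene, and vas, the RNA helicase gene, were at -0.22 and -0.38 without germ cell-like barcodes. nanos lost its call without stage 10-12 replicate 2 (-3.19) or stage 13-16 replicate 1 (-3.38), vas without either stage 10-12 replicate (-1.16 and -1.17), and otu without either stage 10-12 replicate (-1.37 and -1.45) or stage 13-16 replicate 2 (-1.82). The summed CPM of the 8 germ cell markers had no single direction, at 0.886, 1.30, 1.11 and 0.857 of the roX-low level. With equal numbers 0 of 8 were called (edgeR, median -0.41). Of 6 genes of the somatic gonad and related mesoderm, 3 were higher with all barcodes (17.1% of all genes were), Six4 (0.72), eya (1.11) and Wnt2 (1.26), and 0 with equal numbers.

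Within classes msl-2 was called higher on the roX-high side in 4 of 5. In midgut-like clusters its log2 difference was 2.05 ± 0.14 (edgeR adjusted p = 0.00073), where 1810 of 6919 genes (26.2%) were called. In muscle precursor-like clusters it was 1.93 ± 0.14 (adjusted p = 0.0053) and ranked first by p, where 123 of 7267 genes (1.69%) were called. It was 1.87 ± 0.21 in somatic muscle-like clusters (adjusted p = 0.0077, 0.858% called) and 2.17 ± 0.43 in plasmatocyte-like clusters (adjusted p = 0.0071, 7.05% called). In epidermis-like clusters, with the fewest roX-low barcodes for their size, it was 1.28 ± 0.38 (adjusted p = 0.21), where 1 of 8131 genes (0.0123%) was called. With equal numbers per cluster the class values of msl-2 were 2.00 in midgut-like clusters (adjusted p = 0.00026, where 16% of genes were called), 1.87 in muscle precursor-like (adjusted p = 0.0011, 2.02%), 1.85 in somatic muscle-like (adjusted p = 0.016, 0.609%), 2.31 in plasmatocyte-like (adjusted p = 0.040, 2.51%) and 1.35 in epidermis-like clusters (adjusted p = 0.16, 0.0541%). Sxl was lower in all 5 classes and called in 3: muscle precursor-like (-0.65, adjusted p = 0.033), plasmatocyte-like (-0.47, adjusted p = 0.031) and midgut-like (-0.25, adjusted p = 0.035). The values in somatic muscle- and epidermis-like clusters were -0.46 (adjusted p = 0.14) and -0.39 (adjusted p = 0.42). tra was called lower in muscle precursor-like (-0.53, adjusted p = 0.039) and midgut-like clusters (-0.38, adjusted p = 0.040), and tko was called lower in midgut-like (-0.87) and muscle precursor-like clusters (-0.51). msl-1, mle, msl-3 and mof were called higher in midgut-like clusters, by 0.43 (adjusted p = 0.018), 0.41 (adjusted p = 0.035), 0.50 (adjusted p = 0.045) and 0.54 (adjusted p = 0.049). With equal numbers per cluster msl-1 and mle kept that call, and msl-3 (0.43, adjusted p = 0.12) and mof (0.42, adjusted p = 0.18) did not. Sxl then kept its call in muscle precursor- and midgut-like clusters and lost it in plasmatocyte-like clusters (-0.50, adjusted p = 0.084).

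The difference between the sides was also compared between stages. In the fit of side by stage, 0 of 10222 genes were called (edgeR quasi-likelihood test), while 1411 had an unadjusted p under 0.05. With equal numbers 0 were called and 685 had an unadjusted p under 0.05. The X minus autosome values differed between the stage windows by 0.01, with an exact permutation p of 1 where 2 libraries against 2 cannot go below 0.333.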

How the data were processed

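Whole-embryo single-cell suspensions of 4 libraries were sequenced on the 10x 3' platform. According to the authors, Cell Ranger 6.1.2 aligned the reads to the FlyBase release 6 genome, and the deposited values are raw UMI counts per gene and barcode in filtered matrices with no normalization. The authors removed doublets, but after the step that made these matrices, so doublets remain in the values used here. The matrices hold 17875 genes, of which 17800 were matched by gene identifier to a symbol and chromosome in BDGP6.54 (Ensembl release 115), whose positions are printed.

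Barcodes were divided by the roX rule and their counts summed by library and side. After filterByExpr and TMM scaling, genes were tested with the quasi-likelihood F test of edgeR 4.0.16 in R 4.3.3, and p-values were adjusted by Benjamini-Hochberg over all genes tested. Both sides of a library come from the same collection of embryos, so the library paired them as a block; p-values measure the spread between 4 libraries. X and autosome values used genes with at least 200 UMIs in a library and exact permutation tests computed with numpy 2.4.6. Exact binomial and Poisson intervals used scipy 1.17.1. Barcodes were clustered with leidenalg 0.10.2 (2000 variable genes of chromosomes 2, 3 and 4, 30 components, 20 neighbours, resolution 1.5). A cluster was named when its best marker list scored at least 0.5, at least 3 markers were detected and a marker was among its 30 leading genes. It was left unnamed where another list had more markers among the 10 leading genes. A cluster of low depth with no own marker among those 10 would also have been left unnamed. The score and these minimums were set after the clusters were seen. Equal numbers per cluster were taken in barcode order. Intervals cover counting error only.

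Genes named are the 10 with the greatest differences each way among calls with at least 100 UMIs and the same direction in all 4 libraries, 3 each way on X, Y or 4, and fixed lists. The members and lists were chosen with earlier results of these data known. esg was not matched by name. The fits were tested on simulated data. Alternatives were stricter roX limits (0.2% and 0.01%), a minimum of 15000 or a maximum of 30000 UMIs, a 10% mitochondrial limit, other gene minimums, DESeq2 1.42.0, no filter, no block, no germ cell-like barcodes and leaving out each library. Within classes, sums with at least 30 barcodes per side in at least 3 libraries were tested.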

Additional observations from a re-analysis of the deposited data

How the results depend on the processing

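The 3434 genes called with all barcodes became 276 with equal numbers per cluster and 1459 to 2943 when a library was left out. The 2 lowest, 1459 and 1731, came without stage 10-12 replicate 1 and without replicate 2. Without the library pairing (no replicate block) 55 genes were called, and with equal numbers 0 (edgeR), where leaving out a library left 0 to 1. The count was 3736 under stricter roX limits, 4213 with DESeq2 and 3442 without germ cell-like barcodes, an alternative chosen after seeing the data, as were the leave-one-out and unblocked values with equal numbers. Within classes, equal numbers per cluster gave 3 calls in epidermis-like, 1092 in midgut-like and 143 in plasmatocyte-like clusters, against 1, 1810 and 438. X minus autosomes stayed below 0, at -0.0321 to -0.0196 with a library left out, and its difference between stages ranged from -0.0114 to 0.0261. The X share difference ranged from -0.301 to -0.185 points with a library left out. It turned to 0.171 under the stricter limits and to 0.129 without the top 20 genes of X and of the autosomes. Among single genes, Sxl turned to 0.40 under the stricter limits and 0.00013 with at most 30000 UMIs, and upd2 (-0.16), lncRNA:cherub (-0.17), toy (-0.0073) and CG1674 (0.060) turned with equal numbers. Without the block, 51 named genes lost their call and none turned. Leaving out a library in turn, in the order of the report, took the call from 17, 14, 6 and 7 named genes and turned none. The causes were not tested. Depth limits the Y genes and the 4225 roX-low barcodes, few of which are neural or epidermal, and 4 libraries cannot give an exact p below 1/8.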

Other observations

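The X share of UMIs was higher in germ cell-like barcodes than in all other barcodes together. X genes took 17.04%, 16.5% and 16.8% of UMIs in germ cell-like barcodes of stage 10-12 replicate 1 and stage 13-16 replicates 1 and 2, against 15.1%, 15.6% and 16.4% in the other barcodes of those libraries. A raised X share was not particular to germ cells. Neuron-like clusters had 17.5% (roX-high) and 18.2% (roX-low) in stage 13-16 replicate 1 and 18.3% and 19.8% in replicate 2. No germ cell-like cluster was found in stage 10-12 replicate 2. Of the 24 germ cell-like barcodes of stage 10-12 replicate 1, 20 were roX-low and 2 roX-high. In the stage 13-16 libraries 39 of 89 and 28 of 79 were roX-high, and 34 and 18 were roX-low. msl-2 in germ cell-like barcodes was at 10.9, 7.06, 19.8, 19.3 and 10.9 CPM over the 5 ranges of roX share, from 28, 8, 12, 12 and 4 UMIs.

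X was divided into 4 stretches of equal length. With equal numbers per cluster their values relative to autosomes had means of -0.05, -0.05, -0.06 and -0.04, each below 0 in 4 of 4 libraries. With all barcodes the means were -0.01, -0.00, -0.07 and -0.01, below 0 in 2, 1, 4 and 4 of 4 libraries. Genes within 200000 bases of roX2, 25 to 33 per library with all barcodes, were at 0.22 ± 0.08 (SD, n = 4) with all barcodes and at 0.03 ± 0.03 with equal numbers. Genes within the same distance of roX1 were at 0.08 ± 0.10 and 0.04 ± 0.04. Among X genes 6.07% lay more than 0.5 log2 units below the autosomal median with equal numbers, against 3.12% of autosomal genes. These are descriptions with no test.

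Of 48 Stellate and Suppressor of Stellate genes, repeats of X and Y that share reads, 2 were tested and 1, SteXh:CG42398, was called lower on the roX-high side with all barcodes (-0.80, edgeR adjusted p = 0.041).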
